A study of Mus musculus with 12 samples.

Results

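Lungs of cigarette smoke-exposed mice were compared with lungs of control mice at 6 months of age, on 3 arrays in each group, which are 6 of the 12 arrays of the series. The arrays were chosen by their sample labels alone, and every gene with a detected probe was followed, 10541 in all. Both groups were female C57BL/6N mice kept free of specific pathogens. The smoke-exposed mice had breathed cigarette smoke, and the control mice are labelled only as control. The series set out to learn how smoke brings lymphoid tissue into the lung and whether B cells there activate macrophages, with chronic obstructive pulmonary disease in mind. The labels give neither the dose and length of exposure nor the hour at which lungs were collected, and they call the 3 samples of each group biological replicates. The other 6 arrays, from 4-month-old smoke-exposed and control mice, shared the estimate of the spread and are set beside the later age at the end.

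Smoke particles that reach the alveoli are taken up by alveolar macrophages, which clear them through their lysosomes and release chemokines that call in monocytes and neutrophils. The lining cells of the airway and alveolus answer with acute phase proteins and mucosal defence proteins. With long exposure B cells, T cells and dendritic cells can gather around airways and vessels as induced lymphoid tissue, held together by follicle chemokines. The proteases of macrophages and neutrophils break down elastin, the fibre that lets the lung recoil, and its loss is a known feature of emphysema. Smoke also carries ligands of the aryl hydrocarbon receptor and oxidants that switch on the transcription factor NRF2.

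An Illumina bead array reads RNA as the brightness of beads that carry one probe. Levels below are normalized log2 intensities, so that 1 unit is a doubling, and they cannot be set against each other between genes. A change is the log2 fold change of smoke over control, with the standard error (SE) of limma's fit. Arrays are numbered by their replicate. A gene passed where limma's p, adjusted by the Benjamini-Hochberg method over all tested probes, was below 0.05. Median raw intensity was 18 to 25 on the 6 arrays, and 55.4 to 56.9% of probes were detected. The number of arrays limits the precision. A fit that leaves out 1 array is less precise still, so a gene that then does not pass need not depend on that array. The lung label held against markers of lung cells. Sftpc and Sftpb, surfactant proteins of alveolar type 2 cells, Ager and Cldn18 of the alveolar lining, Scgb1a1 of airway club cells and Pecam1 of endothelium were detected on every array, and none of them passed (changes of -0.28 to 0.01). In whole lung RNA, more or fewer cells of a type and more or less RNA per cell cannot be told apart.

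At 6 months 535 of the 10541 genes passed (5.08%), 353 of them higher (3.35%) and 182 lower (1.73%) in smoke-exposed lungs. The counts of each gene list below stand beside these shares of all genes. In each of the 535 the smoke and control arrays did not overlap, which was also so in 21.7% of all genes. Where groups of a passing gene are said below not to overlap, this adds nothing to its having passed. The rises reached further than the falls. Of the higher genes, 35 changed by over 2 log2 units, 101 by 1 to 2, 186 by 0.5 to 1 and 31 by less than 0.5, with a median of 0.86. Of the lower genes, none changed by over 2, 22 by 1 to 2, 126 by 0.5 to 1 and 34 by less than 0.5, with a median size of 0.65. Over all genes the median change was -0.02, and the quantiles 0.05 and 0.95 were -0.41 and 0.48. The smallest changes that passed were 0.36 for a rise and -0.38 for a fall. The typical spread within a group was alike, with a median SD of 0.14 over smoke arrays and 0.16 over control arrays.

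**Figure D1:**
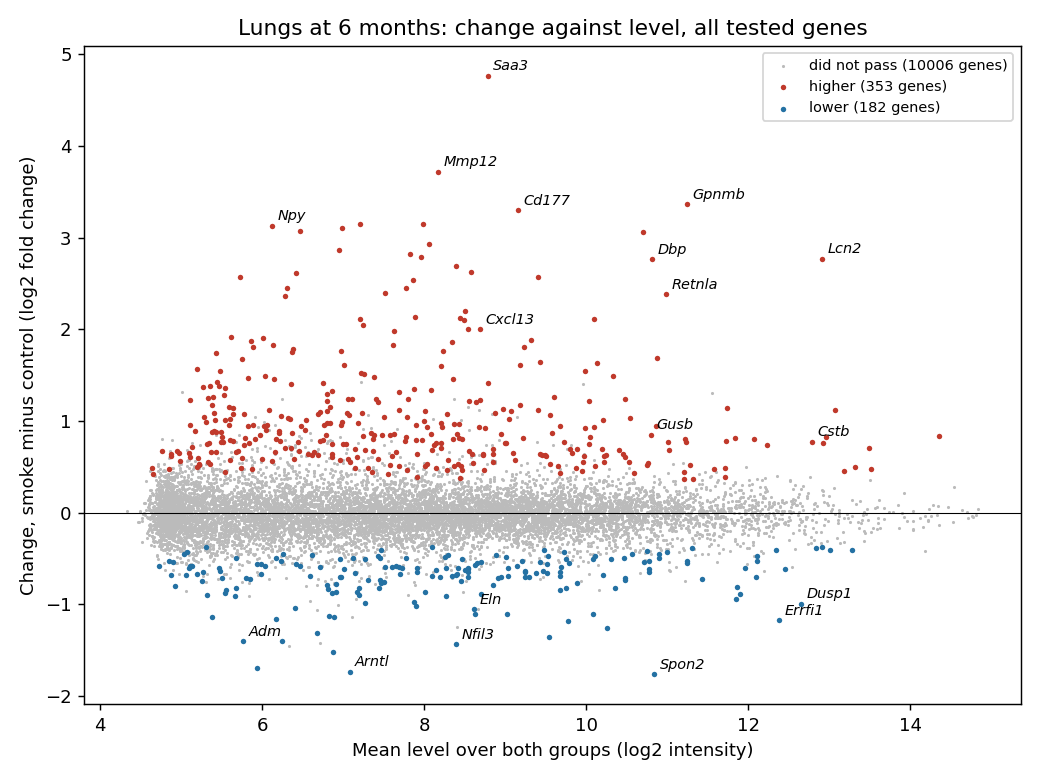
Change (smoke minus control at 6 months, log2 fold change) against mean level (log2 intensity) for the 10541 tested genes, 1 point a gene. Red points are the 353 genes that passed higher, blue points the 182 that passed lower and grey points the rest. Rises reached 4.77 (Saa3), while the furthest fall was -1.77 (Spon2).

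Many of the changes that passed were small. The 12 genes with the smallest p among those that changed by less than 1 log2 unit had SEs of 0.10 to 0.13 and limma adjusted p of 0.000444 to 0.00101, and each still passed without any 1 of the 6 arrays. Gusb, the lysosomal enzyme beta-glucuronidase, was at 11.19, 11.24 and 11.26 on the smoke arrays, against 10.35, 10.52 and 10.28 on the control arrays, a rise of 0.85. Cstb, cystatin B, an inhibitor of lysosomal cathepsins, was at 13.11, 13.22 and 13.18 after smoke, against 12.38, 12.42 and 12.40 in controls, a rise of 0.77. The gap between the groups, 0.68 units in Gusb and 0.69 in Cstb, was wider than the spread of either group. Dpp7, a peptidase of vesicles, rose by 0.94 and Gnpda1, which turns glucosamine phosphate into fructose phosphate, by 0.93. The others that rose were Tnfaip2, induced by tumour necrosis factor (0.93), the glycolytic aldolase Aldoc (0.85), the growth factor midkine, Mdk (0.92), the nucleotide receptor P2ry6 (0.94), the zinc importer Slc39a4 (0.95) and Scamp5 (0.84), a vesicle membrane protein. Scx, scleraxis, a transcription factor of tendon and matrix-forming cells, and Col17a1, a collagen of the anchoring plaques of basal epithelial cells, were the 2 that fell, by 0.98 and 0.84 log2 units. Some other probes of Gnpda1, Tnfaip2, Gusb, Scamp5 and Col17a1 kept the sign and did not pass (limma adjusted p 0.0531 to 0.515).

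Many acute phase genes rose. These encode secreted proteins of early inflammation, best known from the liver and also made by lung lining cells, and 9 of 15 tested were higher and none lower, with a median change of 0.80. Saa3, a serum amyloid A, read 10.54, 11.44 and 11.53 on the smoke arrays, against 5.93, 6.60 and 6.68 on the control arrays, the largest rise of all (4.77, SE 0.30, limma adjusted p = 3.49e-06). Smoke array 1 was the lowest of the smoke arrays, and it lay 3.86 units above the highest control array. The acid glycoprotein Orm1 rose by 3.11. Its neighbour Orm2, undetected in all controls, was at least 4.31-fold higher. Itih4, an inter-alpha-trypsin inhibitor chain, was at 11.61, 11.70 and 11.84 after smoke, against 9.77, 10.03 and 10.29 in controls (a change of 1.68), with a gap of 1.32 between the groups. Lcn2, lipocalin 2, which withholds iron from bacteria, rose by 2.77, Lrg1 by 1.14, the protease inhibitor Serpina3n by 0.80, and Cp, the copper ferroxidase ceruloplasmin, by 0.68. Cp did not pass without smoke array 3 (limma adjusted p = 0.0512).

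Several genes of iron and haem handling rose. Of 16 tested genes 7 were higher and none lower (median 0.36), 3 of them, Lcn2, Cp and Hpx, being acute phase genes as well. Hmox1, the haem oxygenase that frees iron from haem, was at 7.72, 8.06 and 8.18 on the smoke arrays, against 6.65, 6.76 and 5.98 on the control arrays (1.52, SE 0.19, limma adjusted p = 0.000613), and the groups did not overlap. Hpx, hemopexin, which binds free haem, rose by 1.12, and another of its probes did not pass (0.25, limma adjusted p = 0.65). Slc11a1, the metal transporter of phagocytic vesicles, rose by 1.03, and its relative Slc11a2 by 0.52. The iron exporter ferroportin, Slc40a1, rose by 1.13. Higher calls among iron genes numbered 4 without smoke array 3. Slc40a1 dropped out without smoke arrays 2 or 3 or control arrays 2 or 3 (limma adjusted p 0.0587 to 0.0887). Slc11a2 failed to pass without smoke arrays 1 or 3 or control arrays 1 or 2 (limma adjusted p 0.0721 to 0.0966). Cp did not pass without smoke array 3 (limma adjusted p = 0.0512).

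Complement genes that start the classical and drive the alternative pathway were higher. Of 13 tested genes 4 were higher and none lower (median 0.30). C1qa, C1qb and C1qc encode the 3 chains of C1q, the molecule that starts the classical pathway, and rose by 1.46, 1.49 and 1.54. C1qa was at 8.90, 9.14 and 9.24 after smoke, against 7.50, 7.88 and 7.52 in controls (limma adjusted p = 0.000224). Cfb, factor B of the alternative pathway, rose by 1.34. The narrowest gap between the groups in these 4 genes was that of Cfb, 0.92 units. Cfi, which cuts active complement, was at 0.48 and the macrophage complement receptor Vsig4 at 0.53, and neither passed.

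The chemokines that call monocytes gave the highest median of the 53 gene lists. Of 14 tested genes of that list 11 were higher and none lower, with a median of 1.60, or 1.46 with genes that no control array detected set at their bound. Ccl3 and Ccl4, which act on monocytes and T cells, rose by 3.14 and 2.00. Ccl4 was at 9.62, 9.61 and 9.39 on the smoke arrays, against 7.55, 7.58 and 7.50 on the control arrays, with a gap of 1.81 units between 2 tight groups. Ccl7 and Ccl12, ligands of the monocyte receptor CCR2, rose by 2.45 and 2.11, and Ccl2, undetected in all controls, was at least 2.11-fold higher. Ccl8 was at 9.03, 9.15 and 9.20 after smoke, against 5.80, 7.48 and 6.49 in controls (2.53, limma adjusted p = 0.00466). Its smoke arrays spanned 0.17 units and its control arrays 1.68. Ccl6 and Ccl9 rose by 2.12 and 1.64. Csf2, the growth factor GM-CSF on which alveolar macrophages depend, rose by 1.29, the macrophage growth factor Csf1 by 0.75 and the scavenger chemokine Cxcl16 by 0.61. Csf1 dropped out without smoke arrays 1, 2 or 3 or control arrays 2 or 3 (limma adjusted p 0.0526 to 0.106). Cxcl16 failed to pass without smoke arrays 2 or 3 or control array 1 (limma adjusted p 0.0546 to 0.0779).

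Some neutrophil genes passed higher and none passed lower. Cxcl1, a chemokine that draws neutrophils, was at 9.29, 9.65 and 9.74 on the smoke arrays, against 6.14, 6.45 and 6.66 on the control arrays (3.15, SE 0.40, limma adjusted p = 0.000625). The chemokine receptor Cxcr1 rose by 2.93. These were the 2 of 11 tested chemokine and receptor genes that passed (median 0.19). Cxcl5, made by lung epithelium, was detected on all 3 smoke arrays and no control array, at least 1.70-fold higher, and did not pass (limma adjusted p = 0.0527). Of 15 granule and surface genes 4 were higher and none lower (median -0.35). The other 11 had a negative change, as did 5599 of all 10541 genes. The higher ones were Cd177, a surface protein of neutrophils, Lcn2, the Fc receptor Fcgr3, which macrophages also carry, and Chil3, a chitinase-like protein that alveolar macrophages make in quantity. Cd177 was at 10.82, 10.82 and 10.77 after smoke, against 7.33, 7.38 and 7.80 in controls (3.30). S100a8 and S100a9, the subunits of calprotectin that fill the neutrophil cytosol, did not pass (changes of -0.59 and -0.74). S100a8 was at 11.20, 13.66 and 11.89 after smoke, against 13.30, 12.89 and 12.34 in controls, and the groups overlapped. The granule peptides Camp (-1.46) and Ngp (-1.31) also had overlapping groups. The median of neutrophil chemokine and receptor genes was 0.02 without smoke array 2 and 0.39 without smoke array 1. The median of granule and surface genes was -0.59 without smoke array 2 and -0.07 without smoke array 1. Higher calls among granule and surface genes numbered 2 without smoke arrays 2 or 3 or control arrays 1 or 3. Fcgr3 did not pass without smoke arrays 2 or 3 or control arrays 1 or 3 (limma adjusted p 0.0746 to 0.0923). Chil3 dropped out without smoke arrays 2 or 3 or control arrays 1, 2 or 3 (limma adjusted p 0.074 to 0.144).

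The promoter of Cxcl1 is shown because this chemokine had the largest rise among the ligands for neutrophils. Capitals mark matches to a kappaB motif (GGG, any 2 bases, then TTTCC), the kind of site that NF-kappaB proteins are known to bind, on either strand. The window runs from 250 bases before to 50 bases after the start of the gene, on the plus strand at chr5:90890995-90891294 of GRCm38.p6, from RefSeq.
Cxcl1: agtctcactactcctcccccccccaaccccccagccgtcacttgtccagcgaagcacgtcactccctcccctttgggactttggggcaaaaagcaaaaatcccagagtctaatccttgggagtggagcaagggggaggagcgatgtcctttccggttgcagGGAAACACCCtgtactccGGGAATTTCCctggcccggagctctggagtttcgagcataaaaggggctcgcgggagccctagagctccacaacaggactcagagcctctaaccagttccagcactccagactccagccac
It held 2 matches to that form and none to the related form GGG, any 2 bases, then TTCCC. The first form was found in 1.63% of the 32851 mouse promoters of the same length, and the second in 1.75%. Of the 2 neutrophil chemokine and receptor genes that passed, Cxcl1 held the first form and Cxcr1 did not. Among passing genes with a promoter, 1 of 8 acute phase genes (Serpina3n) and 1 of 3 aryl hydrocarbon receptor genes (Ahrr) held it. It was in 0 of 2 NRF2 genes and 0 of 9 clock genes. A match says only that these letters stand in the window.

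Many macrophage surface genes rose. Of 25 tested 12 were higher and none lower (median 0.62). Trem2, the receptor for lipids and cell debris, was at 9.27, 9.52 and 9.29 on the smoke arrays, against 6.23, 6.87 and 6.61 on the control arrays (2.79). Marco, a scavenger receptor of alveolar macrophages that binds particles, was at 8.13, 8.52 and 8.16 after smoke, against 6.12, 6.43 and 6.11 in controls (2.05). The groups lay 2.40 units apart in Trem2 and 1.70 in Marco. Ms4a7, a membrane protein of macrophages, rose by 2.20, the fungal lectin receptors Clec7a and Clec4n by 1.12 and 1.81, and Adgre1, the F4/80 antigen, by 1.17. Clec5a, undetected in all controls, was at least 2.55-fold higher. Mrc1, the mannose receptor, rose by 0.62 and Itgax, the integrin CD11c, by 0.59. Pparg, the nuclear receptor that sets alveolar macrophage identity, rose by 0.50, and Fcer1g, the signalling chain of Fc receptors, by 0.82. Itgax failed to pass without smoke arrays 1 or 3 or control arrays 1, 2 or 3 (limma adjusted p 0.0803 to 0.184). Pparg did not pass without smoke arrays 2 or 3 or control arrays 1, 2 or 3 (limma adjusted p 0.0562 to 0.171). Fcer1g dropped out without smoke arrays 2 or 3 or control arrays 2 or 3 (limma adjusted p 0.081 to 0.144).

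Many lysosomal genes, which encode the digestive machinery that macrophages draw on, rose. Of 36 tested genes 18 were higher and none lower (median 0.45). A positive change was seen in 34 of the 36, and in 4942 of all 10541 genes. The mean level of the whole list was 10.06 to 10.13 on the smoke arrays, against 9.47 to 9.49 on the control arrays. The glycoprotein Gpnmb and the collagen-cutting cathepsin K, Ctsk, led with 3.36 and 3.06. Among the other proteases Ctsz rose by 1.26 and Ctsb by 0.75. The sugar-cutting enzymes Hexa, Gusb and Glb1 rose by 0.82, 0.85 and 0.63, the membrane protein Cd63 by 0.74, and Psap, precursor of the sphingolipid activators, by 0.70. Among subunits of the proton pump that acidifies the organelle Atp6v0d1 rose by 0.45 and Atp6v1b2 by 0.36. Higher calls among lysosomal genes numbered 11 without smoke array 3. Atp6v0d1 failed to pass without smoke arrays 1, 2 or 3 or control array 1 (limma adjusted p 0.0552 to 0.12). Atp6v1b2 did not pass without each of the 6 arrays in turn (limma adjusted p 0.0729 to 0.137).

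Some genes of lipid handling rose as well. Of 20 tested genes 5 were higher and none lower (median 0.17). Lgals3, galectin 3, was at 13.59, 13.69 and 13.60 on the smoke arrays, against 12.47, 12.50 and 12.55 on the control arrays, a rise of 1.12. Lipa, the acid lipase that frees cholesterol in lysosomes, was at 9.52, 9.09 and 9.30 after smoke, against 8.64, 7.98 and 7.61 in controls (1.23). The groups of Lgals3 spanned 0.10 and 0.08 units, whereas control array 1 of Lipa came within 0.46 units of the lowest smoke array. The fatty acid carrier Fabp5 rose by 1.08, Apoe, the apolipoprotein that carries cholesterol away, by 0.77, and Plin2, the coat of lipid droplets, by 0.64. Higher calls among lipid genes numbered 2 without smoke array 3. Lipa and Apoe dropped out without smoke array 3 (limma adjusted p 0.052 to 0.0555). Plin2 failed to pass without smoke arrays 2 or 3 or control array 3 (limma adjusted p 0.0859 to 0.11).

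Metalloproteinases with their inhibitors passed in a share of 9.52% and antiproteases in one of 15.4%, against 5.08% of all genes. Of 21 metalloproteinases and their inhibitors 2 were higher, Mmp12, the macrophage elastase, at 3.72 and Timp1, a secreted inhibitor of this family, at 1.11. Timp1 was at 8.67, 8.53 and 8.51 on the smoke arrays, against 7.15, 7.51 and 7.72 on the control arrays (limma adjusted p = 0.00663), with no overlap. The list's median was 0.02, and Adamts1 (-0.79), Adam8 (0.69) and the tissue-bound inhibitor Timp3 (-0.40) did not pass. Of 13 antiproteases 2 were higher, Wfdc17 (2.57) and Serpina3n, and the airway inhibitor Slpi did not pass (1.30, limma adjusted p = 0.118).

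The genes of the elastic fibre that passed were lower. Of 16 tested 3 were lower and none higher (median -0.22). Eln, elastin itself, was at 8.15, 8.04 and 8.08 on the smoke arrays, against 9.26, 9.14 and 9.03 on the control arrays (-1.06, SE 0.13, limma adjusted p = 0.000444). Lox, the enzyme that crosslinks elastin and collagen, was at 8.58, 8.75 and 8.72 after smoke, against 9.25, 9.42 and 9.46 in controls (-0.69). The groups lay 0.88 units apart in Eln and 0.50 in Lox. Mfap2, a microfibril protein, was at -0.40. Of 23 collagens and proteoglycans 2 passed, both lower (8.7%, against 5.08% of all genes, median -0.12). They were Spon2, a secreted matrix protein, at -1.77 and the proteoglycan osteoglycin, Ogn, at -0.70. The fibrillar collagen Col1a2 (0.44) and the basement membrane collagens Col4a2 (-0.46) and Col4a3 (-0.45) did not pass. Lower calls among collagen and proteoglycan genes numbered 1 without smoke arrays 2 or 3 or control array 1. Mfap2 did not pass without each of the 6 arrays in turn (limma adjusted p 0.0607 to 0.119). Ogn dropped out without smoke arrays 2 or 3 or control arrays 1 or 2 (limma adjusted p 0.0542 to 0.0707).

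**Figure D2:**
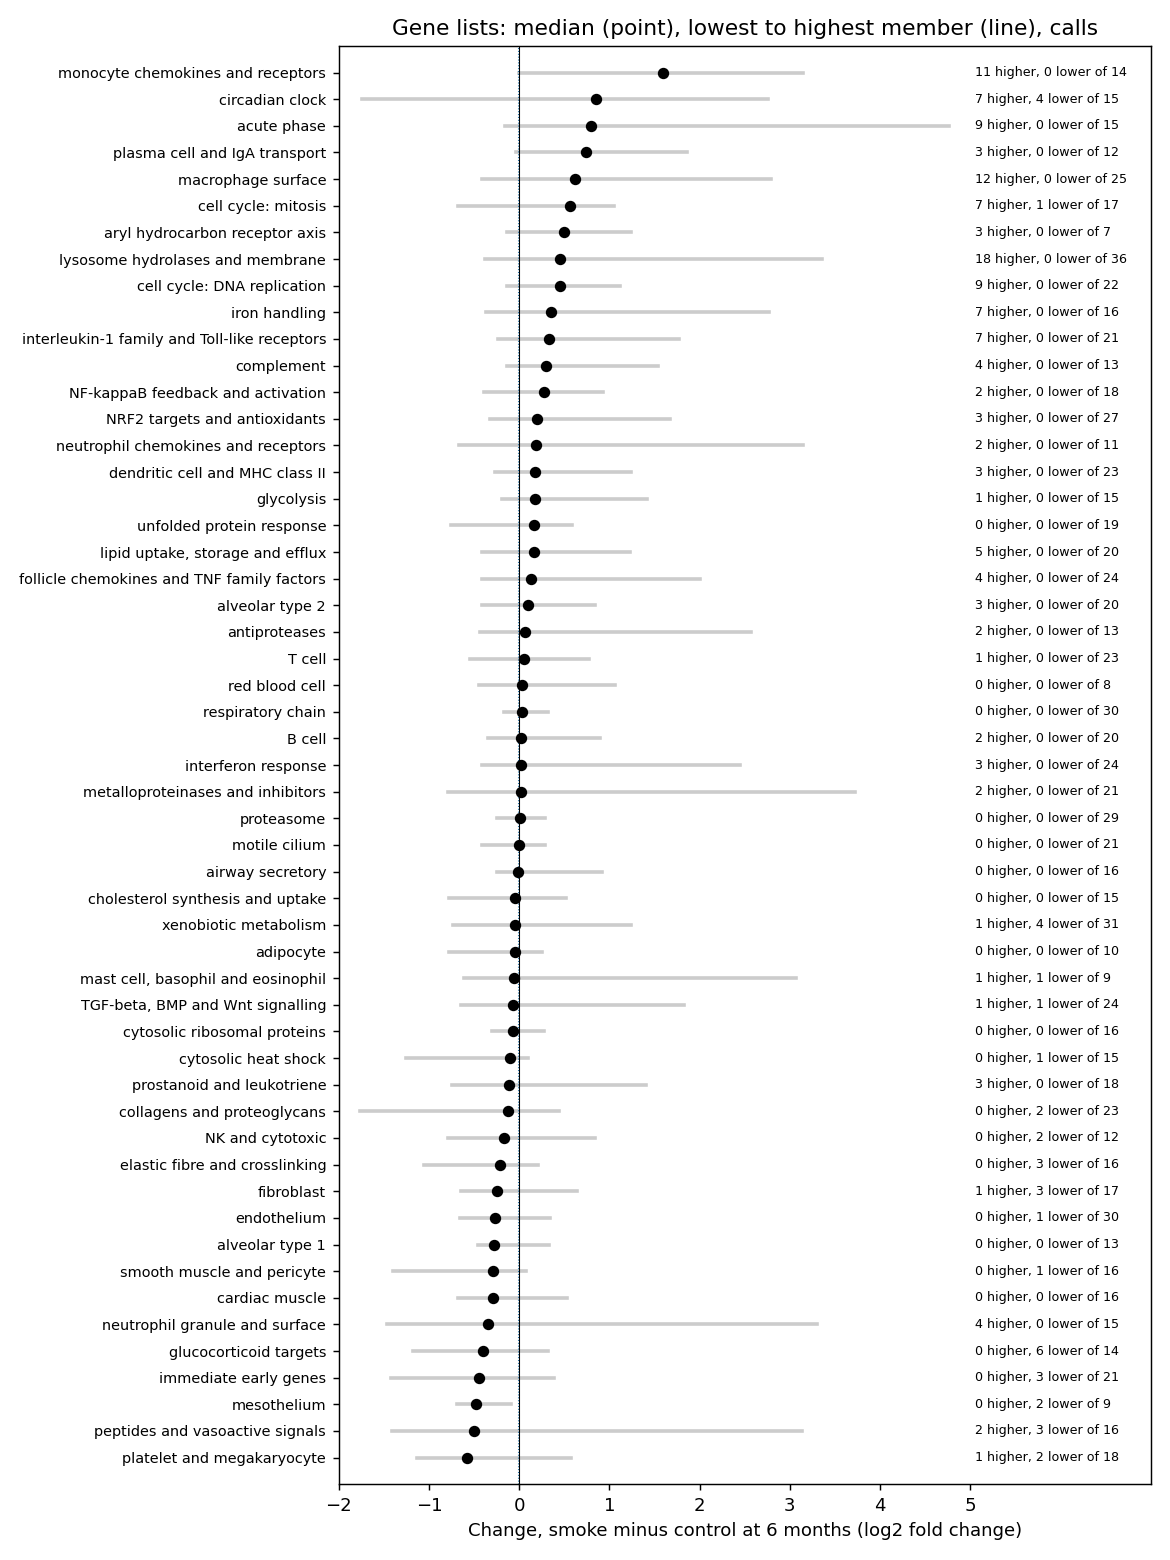
The 53 gene lists at 6 months, ordered by median change (black points, smoke minus control, log2 fold change), with lines from the lowest to the highest tested member. Text at the right gives how many members passed higher or lower of those tested. The dotted line marks the median of all genes, -0.02. Monocyte chemokines stand at the top with a median of 1.60 and platelet genes at the bottom with -0.57, which was -0.25, above the -0.38 of mesothelial genes, without control array 1.

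Some genes of innate cytokine signalling rose, among them receptors and an antagonist. Of 21 genes of the interleukin-1 family and the Toll-like receptors 7 were higher and none lower (median 0.33). Il1rn, the natural antagonist of interleukin-1, was at 7.62, 8.03 and 7.94 on the smoke arrays, against 5.85, 6.18 and 6.26 on the control arrays (1.77, limma adjusted p = 0.000168). The agonist Il1b was at 7.59, 10.40 and 8.66 after smoke, against 9.16, 9.33 and 8.87 in controls, overlapped and did not pass, while Il1a was at 0.95. Tnf, tumour necrosis factor, detected on 1 control array, rose by 1.43, and the viral RNA sensor Tlr7 by 0.66. Tlr2, for bacterial lipoproteins, was at 0.64, Tlr13 at 0.84, and Il33, an alarm signal of alveolar cells, at 0.63. Of 18 genes of NF-kappaB activation and feedback 2 passed, both higher (median 0.28), Tnfaip2 and the inhibitor Nfkbie (0.74). Tnip1 (0.49), the adhesion molecule Vcam1 (0.37) and Bcl3 (0.37) did not pass. The median of interleukin-1 and Toll-like genes was 0.19 without smoke array 2 and 0.46 without smoke array 1. The median of NF-kappaB genes was 0.15 without control array 2 and 0.37 without control array 3. Higher calls among interleukin-1 and Toll-like genes numbered 3 without smoke arrays 2 or 3 or control arrays 1 or 3. Higher calls among NF-kappaB genes numbered 1 without smoke arrays 2 or 3 or control arrays 1 or 2. Il1a failed to pass without smoke arrays 2 or 3 or control arrays 1 or 3 (limma adjusted p 0.112 to 0.141). Tlr2 and Nfkbie did not pass without smoke arrays 2 or 3 or control arrays 1, 2 or 3 (limma adjusted p 0.0644 to 0.137). Tlr13 dropped out without each of the 6 arrays in turn (limma adjusted p 0.051 to 0.155). Il33 failed to pass without smoke arrays 1, 2 or 3 or control arrays 1 or 3 (limma adjusted p 0.0576 to 0.156).

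Some follicle signals rose, and most B cell genes did not pass. Of 24 follicle chemokines and related factors 4 were higher and none lower (median 0.13). Cxcl13, which draws B cells into follicles, was at 9.36, 9.69 and 10.02 on the smoke arrays, against 7.06, 8.51 and 7.50 on the control arrays (2.00). Ccl19, which draws T cells and dendritic cells, was at 8.08, 8.68 and 8.90 after smoke, against 6.87, 7.67 and 7.07 in controls (1.35, limma adjusted p = 0.0143). In both, control array 2 was the highest control and smoke array 1 the lowest smoke array, and the groups stayed apart by 0.85 and 0.41 units. Fcamr, a receptor for IgM and IgA of follicular cells, was detected on 2 smoke arrays and no control array and was at least 1.14-fold higher, and Clu, clusterin, rose by 0.39. Of 20 B cell genes 2 (10%, against 5.08% of all genes) were higher and none lower, with a median of 0.02. These were Blnk, an adaptor of the B cell receptor (0.90), and Vpreb3 (0.64), whereas Ms4a1, the CD20 antigen, was at -0.17 and Cd79a at 0.07, and neither passed. Averaged over its probes, Blnk did not pass (limma adjusted p = 0.0511). Higher calls among follicle genes numbered 2 without smoke arrays 2 or 3 or control arrays 1 or 3. Higher calls among B cell genes numbered 1 without control array 1. Ccl19 and Clu did not pass without smoke arrays 2 or 3 or control arrays 1 or 3 (limma adjusted p 0.0503 to 0.125). Vpreb3 dropped out without control array 1 (limma adjusted p = 0.0508).

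Genes of plasma cells and of antibody transport gave a median of 0.74, or 0.54 with undetected members at their bound, and 3 of 12 tested were higher. Fkbp11, a folding enzyme of secretory cells, was at 9.06, 9.27 and 9.41 on the smoke arrays, against 7.87, 8.17 and 8.07 on the control arrays (1.21). Pigr, which carries IgA across the airway lining, was at 9.36, 9.14 and 9.34 after smoke, against 8.16, 7.34 and 6.75 in controls (1.86). The smoke arrays of Pigr spanned 0.22 units and its control arrays 1.41. Tnfrsf17, the survival receptor of plasma cells, was detected on every smoke array and no control array and was at least 2.38-fold higher. Derl3, undetected in all controls (at least 1.30-fold higher), Edem1 (0.90) and the transcription factor Irf4 (0.70) did not pass. Higher calls among plasma cell genes numbered 7 without smoke array 1. Tnfrsf17 failed to pass without smoke arrays 2 or 3 or control arrays 1, 2 or 3 (limma adjusted p 0.0581 to 0.096).

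Of 23 T cell genes 1 (4.35%, against 5.08% of all genes) was higher and none lower (median 0.05). It was Foxp3, the regulator of regulatory T cells, at 5.80, 5.81 and 6.12 after smoke, against 4.85, 5.08 and 5.49 in controls (0.77). Another probe of Foxp3 was at 0.36 and did not pass (limma adjusted p = 0.486). Genes of natural killer and cytotoxic cells were lower in 2 of 12 and higher in none (median -0.17). Klrd1 and Klre1, chains of natural killer cell receptors, were at -0.69 and -0.79. Klrd1 was at 7.93, 8.19 and 8.04 after smoke, against 8.81, 8.84 and 8.57 in controls, without overlap. Klra7, another receptor of these cells, which was not on the list, fell by 1.17 log2 units (limma adjusted p = 0.00327), while the protease Gzmk of cytotoxic T cells was at 0.84 and did not pass (limma adjusted p = 0.0555). Foxp3 did not pass without smoke arrays 1, 2 or 3 or control arrays 1 or 2 (limma adjusted p 0.0548 to 0.144). Klre1 dropped out without smoke array 3 (limma adjusted p = 0.0571).

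Dendritic cell and MHC class II genes were higher in 3 of 23 and lower in none (median 0.18, or 0.07 with bounds). They were Itgae, the integrin CD103 (0.98), Fscn1, fascin of mature dendritic cells (1.23), and the costimulator Cd86 (0.86). Itgae was at 8.62, 8.73 and 8.75 on the smoke arrays, against 7.59, 7.73 and 7.84 on the control arrays. Of 24 interferon response genes 3 were higher, Cxcl9 and Cxcl10, chemokines for activated T cells, at 2.45 and 1.80, and Ifit3 at 0.64, and the list's median was 0.02. Cxcl10 was at 6.83, 6.75 and 6.80 after smoke, against 4.76, 4.98 and 5.23 in controls. The antiviral enzyme Oas2 was at -0.41 and did not pass. Among 9 mast cell, basophil and eosinophil genes, the eosinophil ribonuclease Ear6 rose by 3.07 and the transcription factor Gata2 fell by 0.61, and Prg2, the eosinophil major basic protein, did not pass (1.42, limma adjusted p = 0.349). Higher calls among dendritic cell genes numbered 5 without smoke array 1. Cd86 failed to pass without smoke arrays 2 or 3 or control array 1 (limma adjusted p 0.0542 to 0.0612). Cxcl9 did not pass without smoke array 3 (limma adjusted p = 0.0503). Gata2 dropped out without smoke arrays 2 or 3 or control arrays 1 or 3 (limma adjusted p 0.0582 to 0.109).

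**Figure D3:**
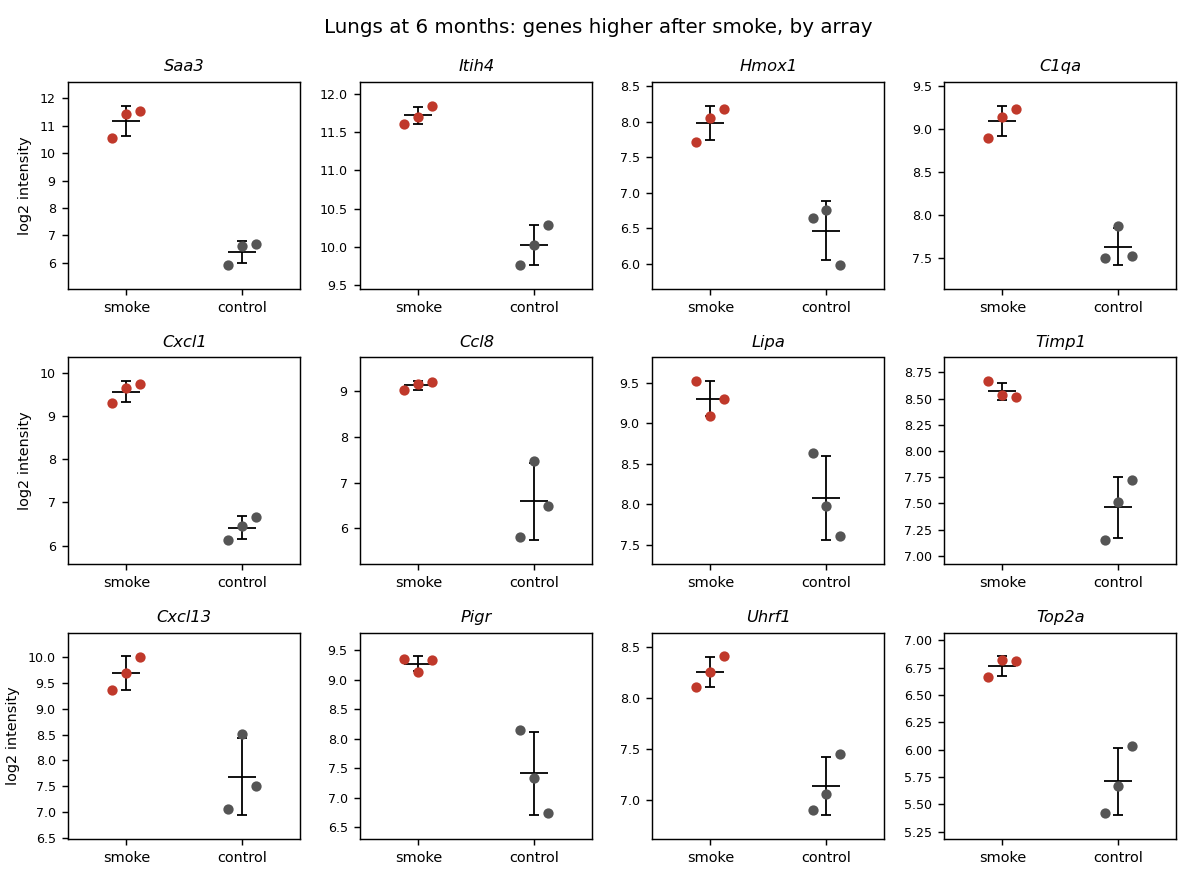
Levels (log2 intensity) on each array of 12 genes that rose, with the 3 smoke arrays at the left of each panel in red and the 3 control arrays at the right in grey. Bars give the mean and SD of each group. In none of the 12 do the groups overlap, which holds for every gene that passed. Control arrays of Cxcl13, Pigr and Ccl8 are the most spread.

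Many genes of dividing cells were higher. Of 22 DNA replication genes 9 were higher and none lower (median 0.45), and of 17 genes of mitosis 7 were higher and 1 lower (median 0.57). Uhrf1, which keeps DNA methylation through replication, was at 8.11, 8.25 and 8.40 on the smoke arrays, against 6.90, 7.06 and 7.45 on the control arrays (1.12, limma adjusted p = 0.00112). Top2a, the topoisomerase that untangles chromosomes, was at 6.66, 6.82 and 6.82 after smoke, against 5.42, 5.67 and 6.04 in controls (1.05). In both genes control array 3 was the highest control array and still lay below every smoke array. Chaf1b, a histone chaperone of the replication fork, rose by 0.63. Tk1, thymidine kinase, was at 1.04, but another of its probes went down and the mean of its probes did not pass (limma adjusted p = 0.171). The helicase subunits Mcm5 and Mcm6 were at 0.67 and 0.47, the loading factor Cdc6 at 0.53, the mitotic kinase Plk1 at 0.87, and Birc5, survivin, at 0.95. Pttg1, securin, which holds sister chromatids together, was at -0.67 and detected on 1 smoke array. The mean level of the mitosis list was 6.68 to 6.92 on the smoke arrays, against 6.09 to 6.39 on the control arrays. Higher calls among replication genes numbered 3 without smoke arrays 2 or 3, 4 without control arrays 1 or 2, 5 without control array 3. Higher calls among mitosis genes numbered 4 without smoke array 1 or control array 2, 1 without smoke arrays 2 or 3 or control array 1, 3 without control array 3. Mcm5 failed to pass without smoke arrays 2 or 3 or control arrays 1 or 2 (limma adjusted p 0.0676 to 0.133). Mcm6 did not pass without smoke arrays 2 or 3 or control arrays 2 or 3 (limma adjusted p 0.0582 to 0.113). Cdc6 and Birc5 dropped out without smoke arrays 2 or 3 or control arrays 1 or 3 (limma adjusted p 0.0544 to 0.097). Plk1 failed to pass without smoke arrays 2 or 3 or control array 1 (limma adjusted p 0.0522 to 0.0953). Pttg1 did not pass without smoke arrays 1, 2 or 3 or control arrays 1 or 2 (limma adjusted p 0.0521 to 0.145).

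Genes that answer to the chemistry of smoke passed in shares of 42.9% (aryl hydrocarbon receptor), 11.1% (NRF2 and antioxidants) and 16.1% (foreign compounds), against 5.08% of all genes. Of 7 tested genes under the aryl hydrocarbon receptor 3 were higher and none lower (median 0.50, or 0.32 with bounds). Cyp1b1, an enzyme that this receptor induces, was at 8.09, 7.98 and 8.02 on the smoke arrays, against 7.03, 6.56 and 6.78 on the control arrays (1.24, SE 0.15, limma adjusted p = 0.000494). Ahrr, the repressor of the receptor, undetected in all controls, was at least 1.22-fold higher. The other gene that passed was Tnfaip2 (0.93), which is also counted among the NF-kappaB genes above. Of 27 NRF2 targets and antioxidants 3 were higher and none lower (median 0.20), Slc7a11, the cystine importer, at 1.68, Hmox1, and the mitochondrial superoxide dismutase Sod2 at 0.49. Nqo1, the quinone reductase, was at 6.48, 6.79 and 6.54 after smoke, against 6.14, 6.22 and 5.95 in controls. Its groups did not overlap, and it did not pass (0.50, limma adjusted p = 0.0643). Enzymes that process foreign compounds were higher in 1 and lower in 4 of 31 (median -0.05). Cyp2a5, which oxidises nicotine and coumarin in the mouse, rose by 1.24, while the lung cytochrome Cyp4b1 fell by 0.72, the flavin monooxygenases Fmo2 and Fmo1 by 0.58 and 0.41, and the sulfotransferase Sult1d1 by 0.74. Lower calls among xenobiotic genes numbered 1 without smoke array 3 or control array 2, 2 without control array 1. Ahrr dropped out without smoke array 2 or control arrays 1, 2 or 3 (limma adjusted p 0.0655 to 0.117). Sod2 failed to pass without smoke array 3 (limma adjusted p = 0.0622). Fmo2 did not pass without smoke array 3 or control array 2 (limma adjusted p 0.0555 to 0.0775). Fmo1 dropped out without each of the 6 arrays in turn (limma adjusted p 0.0532 to 0.137). Sult1d1 failed to pass without smoke array 3 or control arrays 1 or 2 (limma adjusted p 0.0515 to 0.081).

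Genes of the circadian clock passed in both directions, 7 higher and 4 lower of 15 tested. The molecular clock is a loop in which ARNTL, with CLOCK or NPAS2, switches on the PER genes and the nuclear receptors NR1D1 and NR1D2, which in turn shut it down. DBP and TEF act on the D-box of shared targets, and NFIL3 competes with them there. Dbp was at 12.25, 12.18 and 12.15 on the smoke arrays, against 8.77, 9.56 and 9.96 on the control arrays (2.76). Arntl was at 6.08, 6.25 and 6.30 after smoke, against 8.43, 7.95 and 7.47 in controls (-1.74). The smoke arrays spanned 0.09 units in Dbp and 0.22 in Arntl, and the control arrays 1.19 and 0.96. Per3 rose by 1.50, Per2 by 1.11, Nr1d2 by 0.96, Bhlhe40, a repressor of the loop, by 1.01, Tef by 1.06, and Ciart, another repressor, by 0.85. Nfil3 fell by 1.44 and Clock by 0.55, and Npas2, which no smoke array detected, was at least 1.45-fold lower. The labels give no hour of collection, and its part in these values was not tested. Higher calls among clock genes numbered 4 without smoke array 3 or control array 1. Lower calls among clock genes numbered 2 without smoke arrays 2 or 3 or control array 1. Per2 and Npas2 did not pass without smoke arrays 2 or 3 or control array 1 (limma adjusted p 0.0735 to 0.129). Tef dropped out without smoke arrays 1 or 3 or control arrays 1 or 2 (limma adjusted p 0.0676 to 0.098). Ciart failed to pass without smoke arrays 1 or 3 or control arrays 1 or 3 (limma adjusted p 0.0766 to 0.106). Clock did not pass without smoke arrays 2 or 3 or control arrays 1 or 3 (limma adjusted p 0.0505 to 0.0752).

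The promoters of Per3 and Ciart are shown because, of the clock genes that passed, they held the most matches to the D-box or the E-box. Capitals mark the D-box TTANGTAA in Per3 and the E-box CACGTG in Ciart, searched on both strands. The windows are those of RefSeq on the minus strand, at chr4:151044616-151044915 for Per3 and at chr3:95882179-95882478 for Ciart (GRCm38.p6).
Per3: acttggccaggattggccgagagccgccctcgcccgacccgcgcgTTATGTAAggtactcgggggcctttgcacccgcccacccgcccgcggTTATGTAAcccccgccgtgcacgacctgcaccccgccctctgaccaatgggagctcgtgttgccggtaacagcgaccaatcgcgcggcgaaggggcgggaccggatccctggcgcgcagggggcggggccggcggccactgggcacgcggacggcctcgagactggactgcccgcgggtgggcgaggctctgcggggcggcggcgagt
Ciart: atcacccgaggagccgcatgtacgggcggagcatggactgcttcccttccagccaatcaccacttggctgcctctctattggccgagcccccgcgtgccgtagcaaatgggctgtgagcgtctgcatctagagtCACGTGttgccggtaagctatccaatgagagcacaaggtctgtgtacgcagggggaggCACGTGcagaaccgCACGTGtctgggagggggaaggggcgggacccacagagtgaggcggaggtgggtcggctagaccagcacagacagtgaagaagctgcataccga
Per3 held 2 D-boxes and Ciart 3 E-boxes. The D-box was found in 2.32% of the 32851 promoters and the E-box in 7.15%. Of the 9 clock genes that passed and had a promoter in the table, 1 held a D-box and 2 an E-box within it, and neither motif was found in the windows of Dbp, Nr1d2, Arntl or Nfil3.

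Several genes that glucocorticoids induce were lower. Of 14 tested 6 were lower and none higher (median -0.40). Tsc22d3, GILZ, which carries part of the anti-inflammatory action of the hormone, was at 11.66, 11.30 and 11.43 on the smoke arrays, against 12.05, 12.54 and 12.47 on the control arrays (-0.89, limma adjusted p = 0.00323). Errfi1, a brake on EGF receptor signalling, was at 11.88, 11.97 and 11.52 after smoke, against 12.61, 12.86 and 13.44 in controls (-1.18). The groups lay 0.39 and 0.64 units apart. Dusp1, the phosphatase that switches off MAP kinases, fell by 1.00, Pdk4, which limits glucose oxidation, by 1.13, Hsd11b1, which regenerates active hormone, by 0.62, and Cdkn1a, the cell cycle inhibitor p21, by 0.83. Fkbp5, a sensitive target in many tissues, was at 6.94, 7.20 and 7.48 after smoke, against 6.26, 8.07 and 6.33 in controls, and did not pass. Lower calls among glucocorticoid genes numbered 2 without smoke array 3. Dusp1 and Hsd11b1 dropped out without smoke array 3 (limma adjusted p 0.053 to 0.0555). Pdk4 failed to pass without smoke arrays 1 or 3 or control array 2 (limma adjusted p 0.0553 to 0.0766). Cdkn1a did not pass without smoke arrays 1, 2 or 3 or control arrays 2 or 3 (limma adjusted p 0.081 to 0.124).

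Genes of the early response to a stimulus passed in a share of 14.3%, all of them lower, against 1.73% of all genes that were lower. Of 21 immediate early genes 3 were lower and none higher (median -0.45), Dusp1, Klf4 (-0.82) and Klf2 (-0.81), the last a factor that blood flow maintains in endothelium. Fosb was at 6.31, 5.95 and 5.77 on the smoke arrays, against 6.87, 6.82 and 8.59 on the control arrays (-1.42), and did not pass (limma adjusted p = 0.0825). Control array 3 alone gave its high value. Csrnp1, a nuclear protein of the same kind that stands on no list, fell by 1.27 (limma adjusted p = 0.00435). Of 15 heat shock genes 1 passed (6.67%, against 5.08% of all genes), the co-chaperone Dnajb4, which was lower (-0.66). The list's median was -0.10. Hspa1a was at -1.25 and did not pass. The median of immediate early genes was -0.58 without control array 2 and -0.28 without control array 3. Lower calls among immediate early genes numbered 1 without smoke array 2 or control arrays 1 or 3, 0 without smoke array 3. Dusp1 dropped out without smoke array 3 (limma adjusted p = 0.053). Klf4 and Dnajb4 failed to pass without smoke arrays 1, 2 or 3 or control arrays 1 or 3 (limma adjusted p 0.052 to 0.129). Klf2 did not pass without smoke arrays 2 or 3 or control arrays 1 or 3 (limma adjusted p 0.0985 to 0.123).

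**Figure D4:**
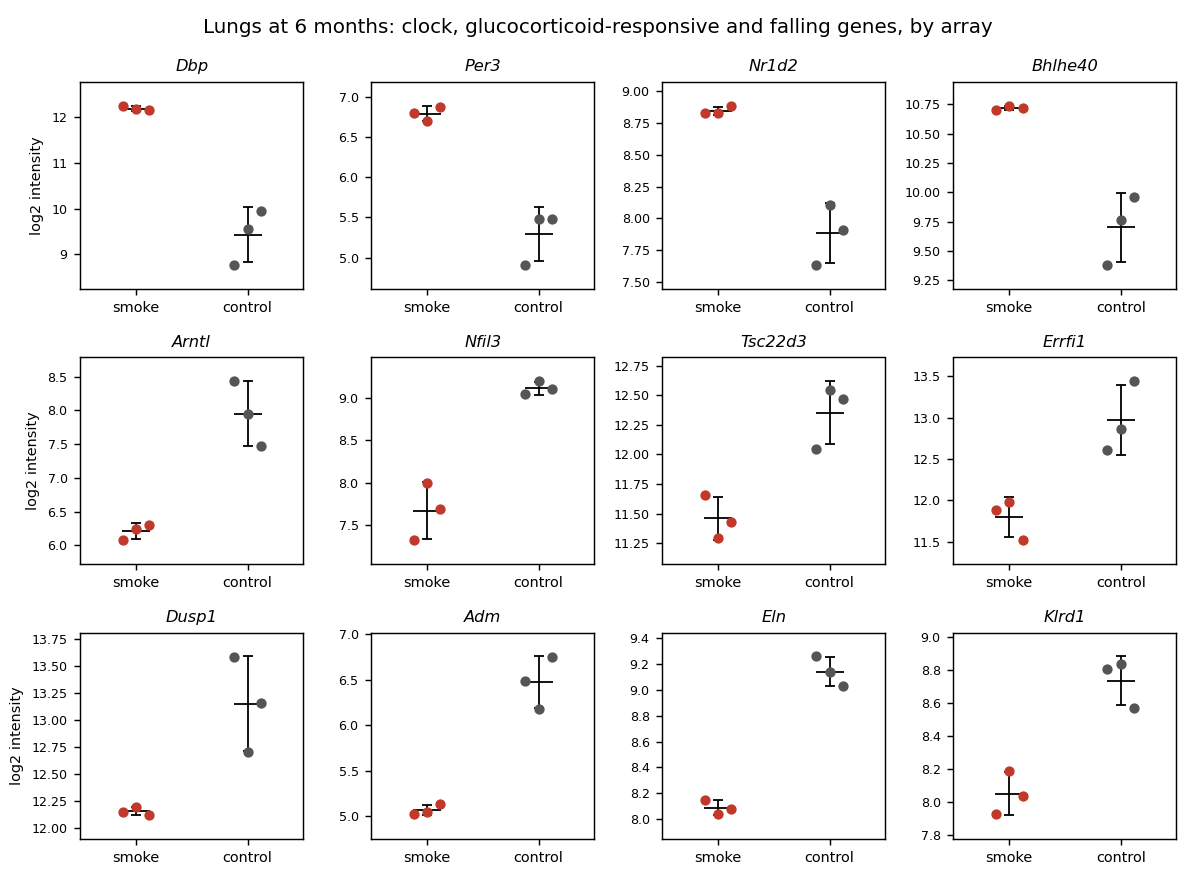
Levels (log2 intensity) on each array of clock genes, of genes that glucocorticoids induce and of other genes that fell, with smoke arrays at the left of each panel in red and control arrays at the right in grey. Bars give the mean and SD of each group. Dbp, Per3, Nr1d2 and Bhlhe40 are higher after smoke and the other 8 genes lower. The groups overlap in none of the 12, which holds for every gene that passed.

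Signals of vessels and nerves changed in both directions. Of 16 peptides, receptors and enzymes of that kind 2 were higher and 3 lower (median -0.50). Npy, neuropeptide Y, was at 7.72, 7.67 and 7.69 on the smoke arrays, against 4.54, 4.57 and 4.57 on the control arrays, none of which detected it, and was at least 6.90-fold higher. Its receptor Npy1r was at 7.40, 7.36 and 7.71 after smoke, against 6.36, 6.58 and 6.55 in controls (0.99). In both genes every smoke array lay above every control array. Adm, the vessel-widening peptide adrenomedullin, was at 5.03, 5.04 and 5.13 after smoke, against 6.49, 6.18 and 6.75 in controls (-1.41, limma adjusted p = 0.000266). The receptors of 2 pressor peptides fell, Avpr1a for vasopressin by 1.40 and Agtr1a for angiotensin by 0.87. Ptgir, the receptor for prostacyclin, rose by 1.41, Hpgds, which makes prostaglandin D, by 1.17, and Tbxas1, thromboxane synthase, by 1.04. These were the 3 of 18 prostanoid and leukotriene genes that passed (median -0.11). The median of these vessel and nerve genes was -0.51 without smoke array 1 and -0.33 without smoke array 2. Agtr1a dropped out without smoke array 3 or control arrays 1 or 2 (limma adjusted p 0.0622 to 0.0679).

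Several lists of structural cells had medians below 0, among them those of endothelium, alveolar type 1 cells, smooth muscle and heart muscle. Alveolar type 2 genes (median 0.09) and genes of motile cilia (0.0005) did not. Of 30 endothelial genes 28 had a negative change, against 5599 of all 10541 genes, with a median of -0.26. The 1 that passed (3.33%, against 5.08% of all genes) was the angiopoietin receptor Tek (-0.53). The mean level of that list was 9.41 to 9.53 on the smoke arrays, against 9.65 to 9.78 on the control arrays. Thrombomodulin, Thbd, was at -0.47, Eng at -0.44, and Edn1, endothelin 1, at -0.58, none of which passed. Of 13 alveolar type 1 genes none passed (median -0.28), nor did any of 16 genes of heart muscle, which lines the pulmonary veins of the mouse (median -0.29). In smooth muscle and pericytes Avpr1a was the 1 gene of 16 that passed (6.25%, median -0.29). Macrophage surface genes had mean levels of 8.42 to 8.72 on the smoke arrays, against 7.65 to 7.78 on the control arrays, and their part in the medians of the structural lists was not tested. The median of alveolar type 1 genes was -0.30 without smoke array 1 and -0.16 without control array 3. The median of smooth muscle and pericyte genes was -0.41 without smoke array 1 and -0.17 without smoke array 2. The median of heart muscle genes was -0.51 without smoke array 1 and -0.03 without smoke array 2. Lower calls among endothelial genes numbered 0 without smoke arrays 1 or 2 or control arrays 1 or 3, 2 without control array 2. Lower calls among smooth muscle and pericyte genes numbered 2 without control array 1. Lower calls among heart muscle genes numbered 1 without smoke array 1. Tek failed to pass without smoke arrays 1, 2 or 3 or control arrays 1 or 3 (limma adjusted p 0.0908 to 0.167).

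Some mesothelial and fibroblast genes fell. Of 9 genes of the lung's outer lining all had a negative change (median -0.48) and 2 passed, the uroplakin Upk1b (-0.69) and the transcription factor Wt1 (-0.69). Over all 10541 genes 5599 had a negative change. Of 17 fibroblast genes 3 were lower and 1 higher (median -0.25). The lower ones were Fgf10, a growth factor for the epithelium (-0.55), the signal protein Wnt2 (-0.65) and the PDGF receptor Pdgfra (-0.54), and the higher one was the lipid droplet gene Plin2. Inhba, the activin subunit, rose by 1.82. With Wnt2 it was all that passed of 24 genes of TGF-beta, BMP and Wnt signalling (8.33%, against 5.08% of all genes). Inhba was at 6.70, 7.23 and 7.20 after smoke, against 5.19, 5.40 and 5.07 in controls. Lower calls among mesothelial genes numbered 1 without smoke arrays 1, 2 or 3 or control array 3, 0 without control arrays 1 or 2. The median of fibroblast genes was -0.44 without smoke array 1 and -0.15 without smoke array 2. Lower calls among fibroblast genes numbered 0 without smoke arrays 2 or 3, 1 without control arrays 1 or 3. Lower calls among TGF-beta, BMP and Wnt genes numbered 0 without smoke arrays 2 or 3 or control arrays 1 or 3, 3 without control array 2. Upk1b did not pass without smoke arrays 1 or 3 or control arrays 1 or 2 (limma adjusted p 0.0553 to 0.125). Wt1 dropped out without smoke arrays 1 or 2 or control arrays 1, 2 or 3 (limma adjusted p 0.0709 to 0.141). Fgf10 and Plin2 failed to pass without smoke arrays 2 or 3 or control array 3 (limma adjusted p 0.0591 to 0.11). Wnt2 did not pass without smoke arrays 2 or 3 or control arrays 1 or 3 (limma adjusted p 0.0897 to 0.133). Pdgfra dropped out without smoke arrays 1, 2 or 3 or control arrays 1 or 2 (limma adjusted p 0.054 to 0.172).

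Platelet genes had the lowest median of the 53 lists, -0.57 over 18 genes. Without control array 1 it was -0.25, above the -0.38 of mesothelial genes, and without control array 2 it was -0.76. Of its genes 2 fell and 1 rose. Thbs1, thrombospondin, which platelets and many other cells release, fell by 1.14, and P2rx1, the ATP receptor of platelets, by 0.61, while Selp, P-selectin of platelets and endothelium, rose by 0.58. The platelet surface genes Gp5 (-1.01), Treml1 (-0.94) and Gp9 (-0.79) did not pass (limma adjusted p = 0.0571, 0.0614 and 0.117). The mean level of the list was 6.68 to 7.08 on the smoke arrays, against 6.94 to 7.64 on the control arrays, so that the groups overlapped. None of 8 red cell genes passed, although Hbb-b2 read 10.78, 6.29 and 6.46 after smoke, against 7.05, 6.80 and 6.48 in controls, high on smoke array 1 alone. None of 10 adipocyte genes passed. Lower calls among platelet genes numbered 1 without smoke arrays 1 or 3, 5 without smoke array 2, 4 without control array 2, 0 without control array 3. Lower calls among adipocyte genes numbered 1 without smoke array 3. Thbs1 failed to pass without smoke array 1 or control arrays 2 or 3 (limma adjusted p 0.0704 to 0.0903). P2rx1 did not pass without smoke array 3 or control array 3 (limma adjusted p 0.0703 to 0.0992). Selp dropped out without smoke array 3 (limma adjusted p = 0.0667).

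Alveolar type 2 genes passed in a share of 15%, against 5.08% of all genes. Of 20 alveolar type 2 genes 3 were higher and none lower (median 0.09). They were Chil1, a chitinase-like protein (0.84), Il33 and the mucin Muc1 (0.48), while Sftpc was at 0.01 and Sftpd, a surfactant protein of innate defence, at 0.28. Chil1 was at 14.71, 14.87 and 14.74 on the smoke arrays, against 13.90, 14.01 and 13.90 on the control arrays. None of 16 airway secretory genes (median -0.02) and none of 21 genes of motile cilia passed. Further genes were found among the largest rises, on no list, and the cells they came from were not tested. Slc26a4, pendrin, an anion exchanger of airway cells, was at 9.74, 10.04 and 9.91 after smoke, against 6.85, 7.44 and 7.53 in controls (2.63). Noxo1, which organises an oxidase that makes superoxide, was at 8.76, 8.61 and 8.77 after smoke, against 6.21, 6.43 and 6.31 in controls (2.40). The groups lay 2.21 and 2.19 units apart. Retnla, a secreted protein of macrophages and airway epithelium, rose by 2.38. Higher calls among alveolar type 2 genes numbered 1 without smoke arrays 1, 2 or 3 or control array 1. Il33 failed to pass without smoke arrays 1, 2 or 3 or control arrays 1 or 3 (limma adjusted p 0.0576 to 0.156). Muc1 did not pass without smoke arrays 1, 2 or 3 or control arrays 1 or 2 (limma adjusted p 0.092 to 0.141). Retnla dropped out without smoke array 2 (limma adjusted p = 0.0573).

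Lists of basic cell machinery held almost no gene that passed. None passed of 29 proteasome genes (median 0.01), 30 respiratory chain genes (0.03), 16 ribosomal protein genes (-0.07), 15 cholesterol genes (-0.05) or 19 genes of the unfolded protein response (0.17). Of 15 glycolysis genes 1 passed (6.67%, against 5.08% of all genes), Hk3, the hexokinase of myeloid cells (1.42, median of the list 0.18). The aldolase Aldoc, which passed (0.85), was not on this list. Gapdh, often used as a reference gene, was at 0.39 and did not pass (limma adjusted p = 0.0744). Higher calls among unfolded protein response genes numbered 1 without smoke array 1. Higher calls among cholesterol genes numbered 1 without control array 3. Lower calls among cholesterol genes numbered 1 without control array 1. Hk3 failed to pass without smoke arrays 2 or 3 or control arrays 1 or 2 (limma adjusted p 0.0542 to 0.0795).

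Other large changes stood on none of these lists, as did 365 of the 535 genes that passed. Among the rises were Zranb3, a helicase of stalled replication forks (2.83), Spag11b, an antimicrobial defensin-like protein (2.86), Apol7c, an apolipoprotein L (2.61), the receptors Gpr176 (2.37, detected on 1 control array) and Lilrb4a, an inhibitor of myeloid cells (2.13), and Lhfpl2 (2.12) and AA467197 (2.69). Zranb3 was at 9.23, 9.20 and 9.29 on the smoke arrays, against 6.35, 6.37 and 6.53 on the control arrays. Among the falls were the phosphodiesterase Gdpd2 (-1.69), Asgr1, a chain of the asialoglycoprotein receptor (-1.52), and the potassium channel subunit Kcne4 (-1.32). Kcne4 was at 5.95, 6.10 and 6.00 after smoke, against 7.69, 6.93 and 7.39 in controls. Angptl4, an inhibitor of lipoprotein lipase (-1.36), Ddit4, which restrains the growth kinase mTOR (-1.11), Bex4 (-1.19) and Bex2 (-1.11), Rasl11a (-1.11), the adenosine phosphate deaminase Ampd1 (-1.04), the skin and hair protein Rptn (-1.14, detected on 1 smoke array) and Hr, a corepressor (-1.02), completed them. Angptl4 did not pass without smoke arrays 1 or 3 or control array 2 (limma adjusted p 0.0953 to 0.103). Ddit4 dropped out without smoke arrays 1, 2 or 3 or control array 3 (limma adjusted p 0.0532 to 0.0796). Bex2 failed to pass without smoke arrays 1 or 3 or control arrays 1, 2 or 3 (limma adjusted p 0.052 to 0.093).

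A change of detection marks a few more. In 38 genes (0.36% of those tested) all 3 smoke arrays and no control array detected the probe, and 18 of these passed. In 18 genes (0.171%) it was the reverse, and 5 passed. Besides those named above, Tnfrsf9, a costimulator of activated T cells, was at least 2.62-fold higher after smoke, the ribonuclease Rnase2b at least 2.07-fold, the betaine transporter Slc6a12 at least 1.77-fold, the adenosine receptor Adora3 at least 1.61-fold, and F9, coagulation factor IX, at least 1.64-fold. In the reverse direction, Wfdc10 was at least 1.38-fold lower, Vwa2 at least 1.10-fold, the cohesin subunit Rad21 at least 1.23-fold, and the homeobox gene Nkx2-3 at least 1.19-fold. Rad21 did not pass without smoke arrays 1, 2 or 3 or control arrays 1 or 2 (limma adjusted p 0.0525 to 0.141). Nkx2-3 dropped out without smoke arrays 1, 2 or 3 or control arrays 2 or 3 (limma adjusted p 0.0851 to 0.133).

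Set beside the arrays of 4-month-old mice, which share none with the later comparison, the later comparison had more genes that passed. At 6 months 535 of 10541 genes passed, and at 4 months 174 (1.65%), of which 135 were higher (1.28%) and 39 lower (0.37%). Of the 535, 142 (26.5%) had also passed at 4 months, which is 81.6% of the 174, and all 142 changed in the same direction at both ages. Among the 353 genes higher at 6 months the median change was 0.86 at 6 and 0.50 at 4 months, and 323 had a positive change at 4 months. Among the 182 lower at 6 months the median was -0.65 at 6 and -0.19 at 4 months, and 156 had a negative change at 4 months. Since these genes were chosen for passing at 6 months, the medians do not compare the ages. The count at 6 months was 316 and 273 without smoke arrays 2 and 3 of that age and 348 without control array 1. The count at 4 months was 102, 96 and 87 without smoke arrays 1, 2 and 3 of that age, and 372 without control array 3. With array weights 773 genes passed at 6 months and 648 at 4 months. The test of the difference itself, the smoke effect at 6 months minus that at 4 months, called 0 genes in limma after adjustment. At an unadjusted p below 0.05, which some unchanged genes also meet, it called 875 of 10541. After adjustment, other settings called up to 13.

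No member of the lists set side by side here had a difference between the ages that passed. DNA replication genes had a median of 0.45 at 6 months and 0.06 at 4 months, with 9 and 0 higher. Mitosis genes had medians of 0.57 and -0.03. The genes that glucocorticoids induce had a median of -0.40 at 6 months and of 0.30 at 4 months. Uhrf1 changed by 1.12 at 6 and 0.05 at 4 months (difference 1.07, limma adjusted p = 0.26), and Ddit4 by -1.11 and 0.61 (difference -1.72, limma adjusted p = 0.26). Monocyte chemokines had medians of 1.60 and 1.03. Gpnmb changed by 3.36 at 6 and 3.39 at 4 months (difference -0.03, SE 0.28) and Mmp12 by 3.72 and 3.47 (difference 0.25, SE 0.59).

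**Figure D5:**
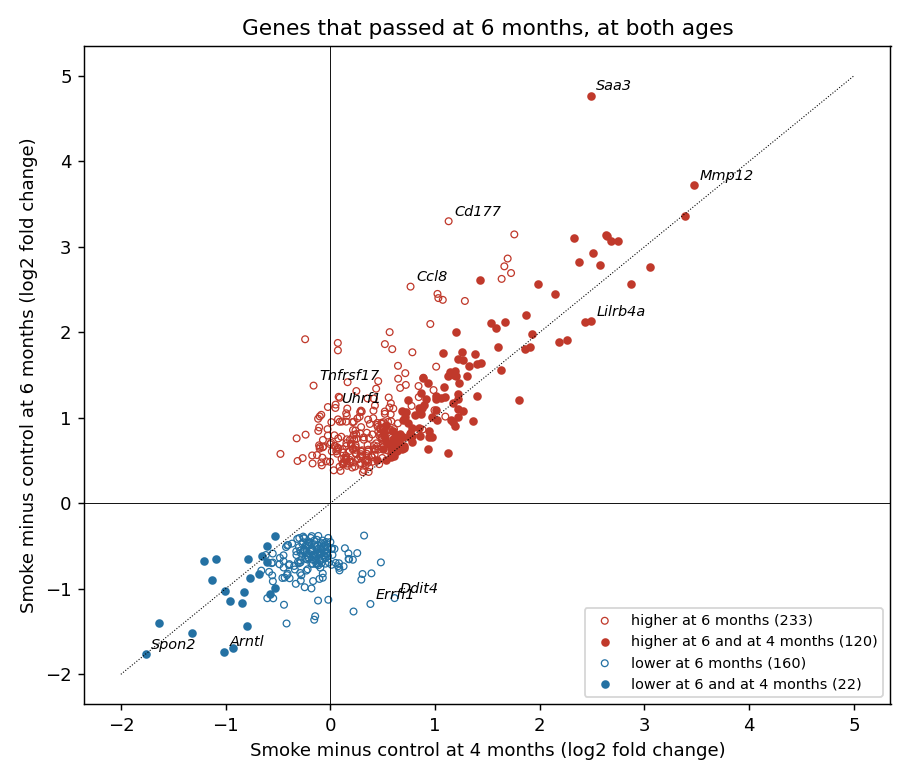
Change at 6 months (vertical, log2 fold change, smoke minus control) against change at 4 months (horizontal) for the 535 genes that passed at 6 months. Filled points passed at both ages (120 higher, 22 lower) and open points at 6 months (233 higher, 160 lower). The dotted line marks equal changes, and no filled point lies in a quadrant of opposite signs.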

How the data were processed

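Lung RNA was hybridised to Illumina mouse bead arrays, and sample titles gave the groups and replicate numbers. Per the file headers, the authors deposited a non-normalized intensity for each probe on a linear scale, and a detection p-value with it. Values below 0 show that a background had already been subtracted. A second deposited table holds processed intensity with equal distributions on every array, and its normalization is not given in the sources used here. Software and genome build are likewise not given in the sources used here.

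The 25697 probes were named through the platform annotation (23978 have 1 symbol and 1719 none), with symbols updated through RefSeq. The raw intensity was corrected with limma's nec (offset 16, with negative controls that limma inferred from detection p), then quantile normalized, and log2 was taken, in limma 3.58.1 under R 4.3.3. The offset understates how far dim probes change. A probe was kept if 3 or more of the 12 arrays detected it at p below 0.05, leaving 15490 probes and 10541 named genes. Each gene is represented by its brightest probe over all arrays. Of the 535 genes that passed, 6 had another probe of opposite sign, among those named Tk1. Other probes could keep the sign and not pass, as in Foxp3, Hpx, Scamp5, Clock and Nr1d2. The same held for some probes of Atp6v0d1, Tlr13, Birc5, Mcm6, Cd63, Mfap2, Klf4, Ifit3, Clec7a, Gnpda1, Tnfaip2, Gusb and Col17a1. Adgre1, Avpr1a, Blnk, Chil3, Ciart, Fgf10, Hsd11b1, Muc1, Nfkbie, Ogn and Rptn also had such a probe. limma's lmFit gave 1 mean per group over the 12 arrays, eBayes moderated the variances, and two-sided p-values of the 15490 probes had a Benjamini-Hochberg adjustment. This code was tested on simulated data.

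Where no array in a group detected a probe, the change is given as at least N-fold, with the dimmer group set, on each array, at the higher of its own value and the lowest detected value. The 53 gene lists hold 1209 symbols, of which 1077 were on the array and 913 were tested. The comparison, its lists and its members were chosen with earlier results of these data known, so that no list is independent support. Lists are described by counts and medians beside those of all genes, with no test of a list. A list's genes can overlap those of another.

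Genes named are the 30 largest rises and 24 largest falls, the 12 smallest p among changes below 1 log2 unit, up to 6 members of each list by p, up to 10 changes of detection each way and a fixed set of well-known genes, of which those measured are reported. Chosen after their values were seen were Adgre1, Atp6v0d1, Atp6v1b2, Camp, Ccl12, Ccl9, Ciart, Clock, Csf1, Ctsb, Cxcl16, Fcer1g, Fkbp5, Glb1, Hexa, Il1b, Itgax, Lrg1, Mrc1, Ngp, Per2, Pparg, Psap, S100a8, S100a9, Slc11a2, Tef and Tlr13. Promoter sequences are from RefSeq (GRCm38.p6). Alternatives were the authors' processed values, other background corrections, scalings, filters and probe rules, array weights, a trended robust eBayes, the 6 arrays alone, a replicate block and leaving out each array.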

Additional observations from a re-analysis of the deposited data

How the results depend on the processing

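All 535 genes that passed at 6 months kept their sign under all 18 alternatives run. This is no independent support, since the groups did not overlap in any of them. Leaving out 1 array could therefore hardly turn a sign, and the other alternatives reuse the same arrays. Of the 535, 246 (190 higher, 56 lower) passed in every fit that left out 1 array. Of the 199 named here that passed, 127 did so in every fit that left out 1 array. Under each of the 12 other alternatives 143 passed, and under all 18 alternatives 118. The 6 arrays alone kept 163 of the 199, and a replicate block kept 175. The count of genes that passed was 273 (without smoke array 3) to 495 when 1 array was left out, 205 to 328 of them higher and 68 to 167 lower. Each of these fits rests on fewer arrays and called fewer genes than the main one. With the 6 arrays alone, which leave fewer degrees of freedom, 99 genes were lower, and with array weights 310. At 4 months the count was 87 to 372 when 1 array of that age was left out (76 to 203 higher, 11 to 169 lower), 648 with array weights (334 higher, 314 lower), and 23 were lower without the filter on dim probes. The 4-month alternatives were chosen after seeing the data. The difference between the ages called 0 genes, 1 with an offset of 50 (lower), 2 with the mean of a gene's probes and 2 with trended robust eBayes (all lower), 13 with array weights (6 higher, 7 lower) and 0 to 2 when 1 array was left out (0 to 1 higher, 0 to 2 lower). The causes were not tested. The labels do not say whether equal replicate numbers pair a smoke with a control sample. The deviations of same-numbered smoke and control arrays correlated at 0.00, 0.25 and -0.13 across genes. Those of arrays with unlike numbers correlated at -0.31 to 0.27. With 3 arrays a group these values cannot decide whether the samples were paired. With a replicate block 426 genes passed at 6 months (291 higher, 135 lower), 141 at 4 months and 0 for the difference. List medians that changed sign under an alternative lay within 0.12 of 0. With 3 arrays a group, changes of dim genes are the least well measured, since the median SE was 0.16 in the 2636 dimmest genes and 0.12 in the 2635 brightest.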
